A study of Mus musculus with 6 samples.

Results

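The genes described here mark tissues that lie against the embryonic spinal cord, namely skeletal muscle and the cartilage and bone of the forming vertebrae. They were chosen by name, as 32 symbols of genes for muscle regulators, contractile proteins, cartilage matrix and bone, and 31 of them had a row with a single gene symbol among the 19938 genes tested. Of these, 23 were muscle genes and 8 were cartilage or bone genes. Runx2, a regulator of bone-forming cells, had no such row and was not analysed here. Whole-transcript arrays measured total RNA of the lumbar spinal cord, dissected from mouse embryos at stage E15.5. A group of 3 arrays came from embryos labelled TNC -/-, Tnc being the gene for the matrix glycoprotein tenascin-C, and the other group of 3 came from wild-type embryos. Both groups were given as strain SV129 and their arrays as biological replicates, while the part of Tnc that was removed, the litters and the pooling of embryos were not given in the sources used here. Where nothing further says that replicates are single embryos, the spread between arrays is the only error that the tests measure.

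Skeletal muscle forms when the myogenic regulatory factors, a family of basic helix-loop-helix proteins, bind the short DNA motif called the E-box in the promoters and enhancers of muscle genes. Fusing muscle fibres then make large amounts of actin, myosin and the troponin complex, which makes contraction depend on calcium. Cartilage cells secrete matrilins, chondroadherin and related matrix proteins around a collagen network. A dissected spinal cord that carried much body-wall muscle or vertebral cartilage would hold these transcripts, which is why their level on each array was read.

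Promoters of 4 muscle genes are shown because the regulators bind E-boxes in promoters and enhancers of muscle genes. These 4 genes cover a regulator, a receptor subunit, an actin and a troponin. Whether the regulators act through the E-boxes in these windows was not tested. Each is the 250 bases before the annotated start, written 5′ to 3′ from RefSeq sequence of build GRCm38.p6, with every E-box (CANNTG, searched on both strands) in capitals. Myog lies at chr1:134289754-134290003 on the plus strand, Chrng at chr1:87205561-87205810 on the plus strand, Acta1 at chr8:123894776-123895025 on the minus strand and Tnni1, at the first of its 2 listed starts, at chr1:135799171-135799420 on the plus strand.
Myog: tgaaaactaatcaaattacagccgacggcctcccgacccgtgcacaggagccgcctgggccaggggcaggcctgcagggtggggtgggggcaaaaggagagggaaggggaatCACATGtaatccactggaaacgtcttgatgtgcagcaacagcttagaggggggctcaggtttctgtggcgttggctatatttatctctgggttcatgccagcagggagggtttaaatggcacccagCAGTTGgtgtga
Chrng: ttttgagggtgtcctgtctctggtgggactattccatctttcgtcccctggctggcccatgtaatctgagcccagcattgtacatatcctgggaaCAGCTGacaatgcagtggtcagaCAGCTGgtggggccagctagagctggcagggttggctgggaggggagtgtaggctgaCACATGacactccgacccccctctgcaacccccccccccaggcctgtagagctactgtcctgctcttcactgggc
Acta1: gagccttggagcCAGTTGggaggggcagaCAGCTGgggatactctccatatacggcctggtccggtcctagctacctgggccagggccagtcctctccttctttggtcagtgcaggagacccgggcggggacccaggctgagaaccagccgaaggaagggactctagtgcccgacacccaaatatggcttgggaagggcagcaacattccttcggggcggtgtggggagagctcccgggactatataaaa
Tnni1: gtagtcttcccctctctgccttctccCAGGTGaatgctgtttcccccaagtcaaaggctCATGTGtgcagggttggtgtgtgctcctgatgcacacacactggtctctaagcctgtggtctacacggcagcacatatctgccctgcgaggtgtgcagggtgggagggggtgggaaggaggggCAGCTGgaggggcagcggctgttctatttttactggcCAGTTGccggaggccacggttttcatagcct

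The Myog promoter held 2 E-boxes, the Chrng promoter 3, the Acta1 promoter 2 and the Tnni1 promoter 4. A promoter in the table was found for 24 of the 31 measured genes, with 27 starts in all. The general E-box was present in 22 of those 27 promoters and in 66.2% of all 32851 promoters of the same length. CAGCTG, one of the general motif's forms and so counted within it, was present in 11 of the 27 and in 13.0% of all promoters. A match is only a run of letters in this window and does not show that a factor binds there.

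The targeted gene was read first. Tnc read 9.64, 9.76 and 9.47 on the log2 scale in the knockout arrays, against 10.72, 10.22 and 10.02 in the wild-type arrays. Knockout signal came to 61.8% of wild type and stayed above that of every receptor gene used below as a guide to background, the highest of which averaged 9.07. The knockout values all lay below the wild-type values, with a difference of -0.69 and a 95% interval from -1.09 to -0.30 (limma, adjusted p = 1.0). With 3 arrays a group, a two-sided exact permutation test cannot fall below p = 0.1, and Tnc gave that value. Medians over all transcript clusters lay between 6.96 and 7.10 per array, and precision is limited by the few arrays. Knockout replicates 1 and 3 carried Y-linked signal (Uty at 8.97 and 8.08, against 4.35 in knockout replicate 2 and 4.27 to 4.53 in wild type), so sex differed between the groups as well. All 16 markers of spinal cord used as a check on the labelled tissue read above the background guide defined next, with means from 8.68 to 13.55.

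The markers were sorted by a rough guide to background. For it, 1190 olfactory and vomeronasal receptor genes had a median level of 4.41 and a 95th percentile of 6.14. Of the 31 measured markers, 13 had a mean over the 6 arrays under that percentile and the other 18 lay above it, between 6.18 and 7.94. Probe sets differ in how brightly they respond, so the guide sorts genes only roughly, and 60 of the receptor genes themselves lay above it, up to 9.07. No marker read above 8.04 on any of the 6 arrays. No sample of muscle or cartilage was at hand to set a scale, so these levels do not say how much of either tissue was attached. In a bulk sample, few attached cells and little RNA per cell cannot be told apart.

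**Figure D1:**
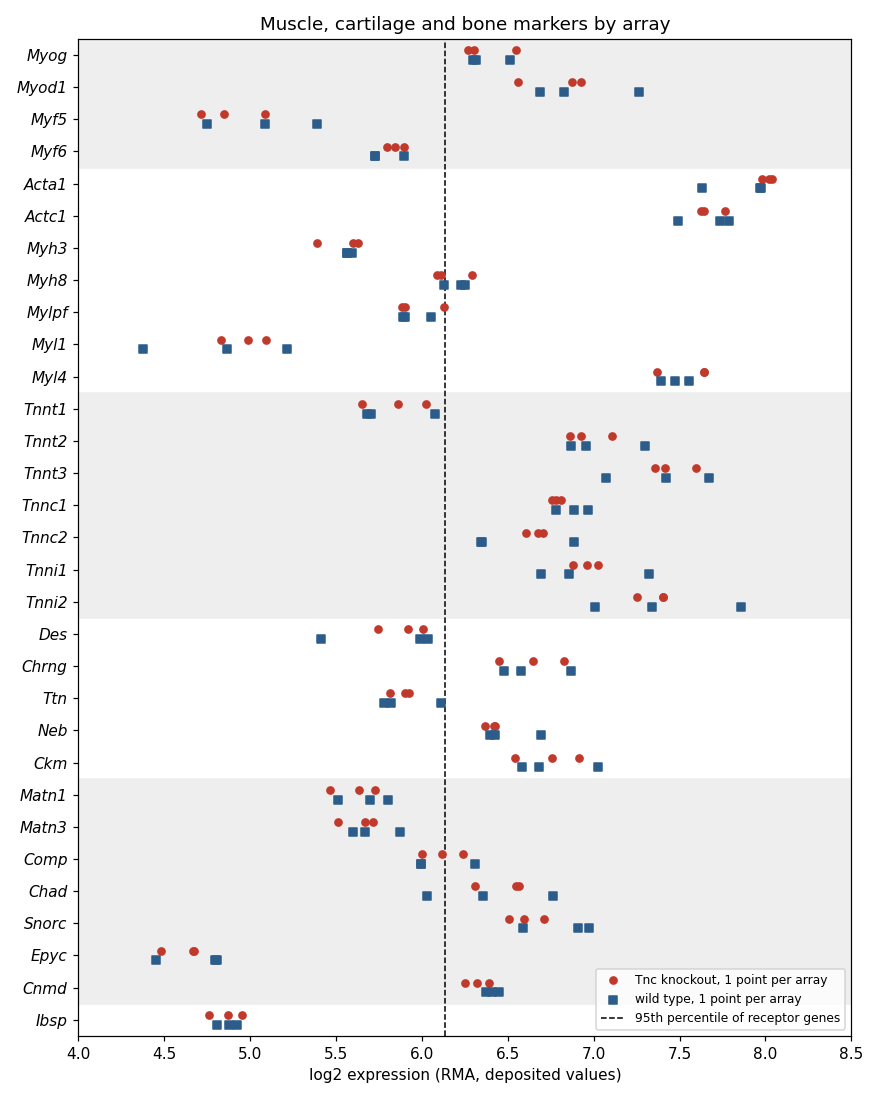
Log2 expression of the 31 markers (deposited RMA values, x axis), with 1 point per array, knockout arrays as red circles above wild-type arrays as blue squares, and shaded bands setting off regulators, actins and myosins, troponins, other muscle genes, cartilage genes and bone. The dashed line is the 95th percentile of receptor genes at 6.14, and 13 markers have their mean to its left.

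No marker of the 31 passed the test between Tnc knockout and wild type. Limma with Benjamini-Hochberg adjustment over all genes called 0 markers at an adjusted p under 0.05, where 0 of 19938 genes passed (0.0%). At an unadjusted p under 0.05 it counted 0 markers higher and 0 lower in knockout, beside 0.933% and 0.767% of all genes. The median log2 difference, knockout minus wild type, was -0.0066 over the markers and -0.0069 over all genes tested. Of the markers 12 were higher and 19 lower in knockout, beside 46.4% and 53.6% of all genes. By role, 1 of 4 regulators, 5 of 7 actins and myosins, 3 of 7 troponins, 1 of 5 other muscle genes, 2 of 7 cartilage genes and 0 of 1 bone gene were higher. The counts over all markers rested on single arrays, being 6 and 25 without wild-type replicate 1 and 21 and 10 without wild-type replicate 3. The interval of the difference included 0 for all 31, and its bound farthest from 0 was 0.59 log2 units for Myl1, a ratio of 1.51. Larger single-gene differences than that lay outside the 95% intervals, which are not adjusted for the number of genes.

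**Figure D2:**
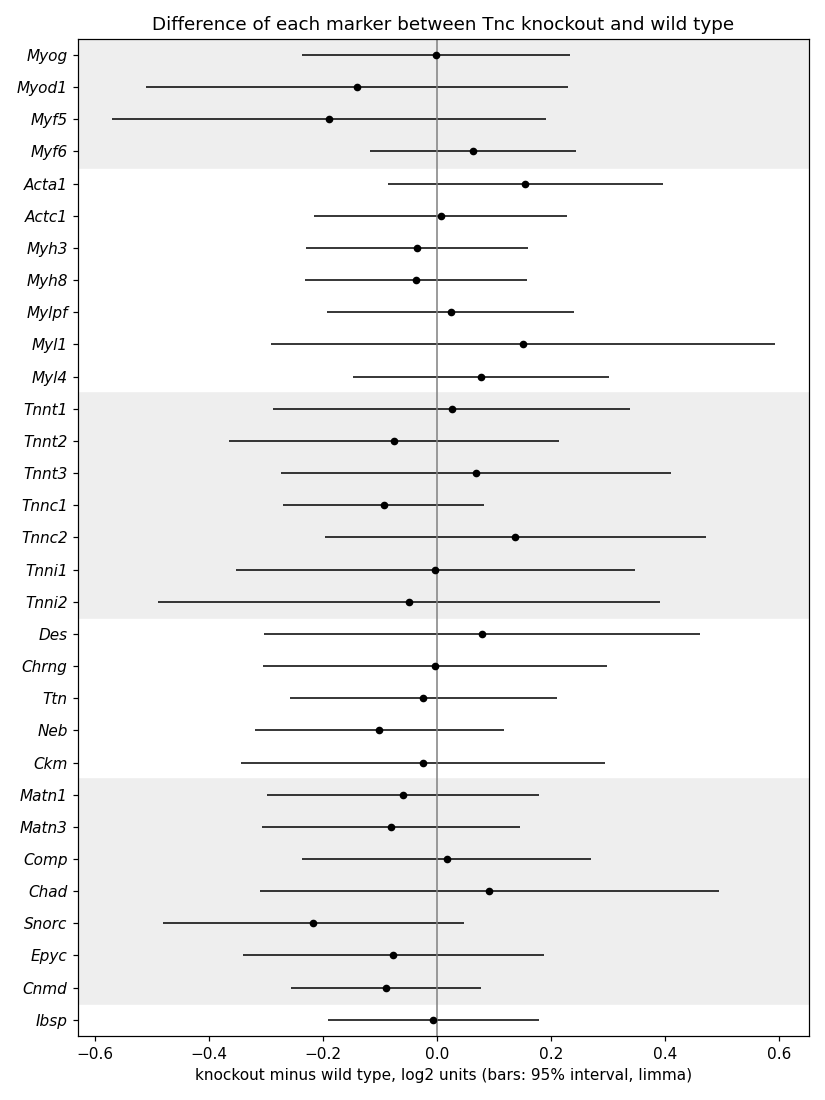
Difference of each marker in log2 units, knockout minus wild type, with bars for the 95% interval from limma (3 arrays per group). Every bar crosses 0, and the point farthest from it is Snorc at -0.22.

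Among the myogenic regulatory factors, Myog and Myod1 read above the background guide and Myf5 and Myf6 under it. Myog, the factor of muscle differentiation whose promoter is shown above, read 6.27, 6.31 and 6.55 in knockout arrays, against 6.31, 6.30 and 6.51 in wild-type arrays. The values interleaved, and the difference was -0.0024 (95% interval -0.24 to 0.23). Myod1, a factor of muscle commitment, read 6.56, 6.87 and 6.92 in knockout, against 6.69, 6.83 and 7.26 in wild type. Its highest array was wild-type replicate 3 and its lowest knockout replicate 1, and the groups overlapped at a difference of -0.14 (-0.51 to 0.23). Myf5, the earliest of the family in the somite, ranged from 4.71 to 5.09 in knockout and from 4.75 to 5.39 in wild type. Its difference of -0.19 was the lowest among muscle markers, with an interval from -0.57 to 0.19, and it was -0.35 without wild-type replicate 1 and -0.033 without wild-type replicate 3. Myf6 ranged from 5.80 to 5.90 in knockout and from 5.73 to 5.89 in wild type.

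Of the actins and myosins, 4 of 7 lay above the guide. Acta1, the actin of skeletal muscle, read 8.04, 8.02 and 7.98 in knockout arrays, against 7.63, 7.97 and 7.98 in wild-type arrays. It was the only marker whose groups did not overlap, 1 of 31 beside 3.18% of all genes higher in this way, and 0 of 31 were lower in this way beside 2.64%. The separation was narrow, since the lowest knockout array and the highest wild-type array both rounded to 7.98, and only wild-type replicate 1 lay clearly below the rest. The difference was 0.15 (95% interval -0.09 to 0.40, unadjusted p = 0.177, limma) and it was 0.04 without wild-type replicate 1. Actc1, the cardiac actin that embryonic skeletal muscle also makes, read 7.64, 7.77 and 7.62 in knockout, against 7.49, 7.73 and 7.79 in wild type. Actins are close in sequence to each other, and whether the probes of these rows also read other actins was not tested.

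Myl4, an embryonic and atrial myosin light chain, read 7.64, 7.64 and 7.37 in knockout arrays, against 7.39, 7.56 and 7.47 in wild-type arrays. Knockout replicate 3 was its lowest array, so the groups overlapped at a difference of 0.08. Myh8, the perinatal myosin heavy chain, read 6.11, 6.09 and 6.29 in knockout, against 6.13, 6.25 and 6.23 in wild type, all close to the guide. The embryonic heavy chain Myh3, which fetal muscle makes in quantity, stayed under the guide, from 5.39 to 5.63 in knockout and from 5.56 to 5.59 in wild type. The fast light chain genes were under it too by their means. Mylpf ranged from 5.88 to 6.13 in knockout and from 5.89 to 6.05 in wild type. Myl1 ranged from 4.83 to 5.09 in knockout and more widely, from 4.38 to 5.22, in wild type.

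The troponins all had the same highest array. The highest of the 6 arrays was wild-type replicate 3 for all 7 of them, where it was the highest for 31.1% of all genes tested. At the levels of the troponins that share was larger. Among other genes it was 62.3% for means from 5 to 6, 59.1% from 6 to 7 and 32.7% from 7 to 8. Tnni2, the fast inhibitory subunit, read 7.40, 7.40 and 7.25 in knockout arrays, against 7.01, 7.34 and 7.86 in wild-type arrays. The wild-type values thus lay on both sides of the knockout values, 0.85 log2 units apart between replicates 1 and 3. Tnni1, the slow inhibitory subunit whose promoter is shown above, read 6.88, 6.96 and 7.02 in knockout, against 6.69, 6.86 and 7.32 in wild type. Again the wild-type arrays enclosed the knockout arrays, with a difference of -0.0032 (95% interval -0.35 to 0.35).

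Tnnt3, the fast subunit that binds tropomyosin, read 7.36, 7.42 and 7.60 in knockout, against 7.07, 7.42 and 7.67 in wild type. Tnnt2, its cardiac form, which embryonic skeletal muscle also makes, read 6.86, 7.11 and 6.93 in knockout, against 6.87, 6.95 and 7.30 in wild type. The groups overlapped for both, with differences of 0.07 and -0.08. Tnnc2, the fast calcium-binding subunit, read 6.61, 6.68 and 6.71 in knockout, against 6.35, 6.34 and 6.89 in wild type. Tnnc1, the slow and cardiac calcium-binding subunit, read 6.78, 6.81 and 6.76 in knockout, against 6.78, 6.88 and 6.97 in wild type. Tnnc2 differed by 0.14 and Tnnc1 by -0.09, with overlapping groups for both. The Tnnc2 difference was 0.32 when wild-type replicate 3 was left out, and 0.048 or 0.045 when replicate 1 or 2 of that group was. Tnnt1, the slow tropomyosin-binding subunit, was the only troponin under the guide, from 5.65 to 6.03 in knockout and from 5.68 to 6.08 in wild type. Over the 7 troponins the standard deviation within groups had a median of 0.09 in knockout and 0.30 in wild type. It was larger in wild type elsewhere too, with medians of 0.09 and 0.12 over all genes tested. The medians were 0.11 and 0.14 over receptor genes and 0.06 and 0.13 over the 16 spinal cord markers.

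Among other muscle genes, Chrng, the fetal acetylcholine receptor subunit at the nerve-muscle contact, read 6.45, 6.64 and 6.82 in knockout arrays, against 6.48, 6.58 and 6.87 in wild-type arrays. In each group replicate 3 was the highest, and the difference was -0.0038 (95% interval -0.31 to 0.30). Ckm, the muscle creatine kinase, read 6.54, 6.76 and 6.92 in knockout, against 6.58, 6.68 and 7.03 in wild type. It showed the same arrangement, with a difference of -0.02. Neb, the giant ruler protein of thin filaments, read 6.37, 6.42 and 6.42 in knockout, against 6.70, 6.40 and 6.42 in wild type. Here wild-type replicate 1 was the highest array, opposite to the troponins. Ttn, the elastic spring of the sarcomere, was under the guide, from 5.81 to 5.92 in knockout and from 5.78 to 6.11 in wild type. Des, the intermediate filament of muscle that blood vessel walls also contain, was under it as well, from 5.74 to 6.01 in knockout and from 5.41 to 6.03 in wild type.

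Cartilage genes had 3 of 7 measured members above the guide. Snorc, a transmembrane proteoglycan of cartilage cells, read 6.51, 6.71 and 6.60 in knockout arrays, against 6.59, 6.91 and 6.97 in wild-type arrays. Its difference of -0.22 was the farthest from 0 among the 31 markers, with an interval from -0.48 to 0.05, an unadjusted p of 0.0937 and an adjusted p of 1.0 (limma). Without wild-type replicate 1 it was -0.34, at an unadjusted p of 0.00681 and an adjusted p of 0.999 (limma), and without wild-type replicate 3 it was -0.14. The groups overlapped through wild-type replicate 1, and signal in knockout came to 86.0% of that in wild type. Chad, the matrix protein chondroadherin, read 6.55, 6.57 and 6.31 in knockout, against 6.03, 6.35 and 6.76 in wild type, so that the wild-type arrays enclosed the knockout arrays. Cnmd, which keeps blood vessels out of cartilage, read 6.25, 6.39 and 6.32 in knockout, against 6.41, 6.37 and 6.45 in wild type, with a difference of -0.09 (-0.26 to 0.08).

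The cartilage matrix genes under the guide were Matn1, Matn3, Comp and Epyc. Matn1, a matrilin of mature cartilage, ranged from 5.47 to 5.73 in knockout and from 5.51 to 5.80 in wild type. Matn3 ranged from 5.51 to 5.72 in knockout and from 5.60 to 5.88 in wild type. Comp, a thrombospondin of cartilage and tendon, ranged from 6.00 to 6.24 in knockout and from 5.99 to 6.31 in wild type, and Epyc, a small proteoglycan of growing cartilage, from 4.48 to 4.67 in knockout and from 4.45 to 4.81 in wild type. Wild-type replicate 3 was the highest array for all 7 cartilage genes, as for the troponins. Among other genes it was the highest for 45.1% of those with a mean under 5, 62.3% from 5 to 6 and 59.1% from 6 to 7. Ibsp, the bone sialoprotein and the only bone marker measured, ranged from 4.76 to 4.95 in knockout and from 4.80 to 4.92 in wild type, near the median of the receptor genes. The median difference over the 8 cartilage and bone markers was -0.07, and it was -0.00090 without wild-type replicate 3.

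The mean level of the markers was compared across arrays. Over the 23 muscle markers it was 6.43, 6.51 and 6.54 in the knockout arrays, against 6.32, 6.49 and 6.67 in the wild-type arrays. The group means were 6.49 ± 0.06 in knockout and 6.49 ± 0.18 in wild type (SD, n = 3 each), a difference of 0.00014. Over the 8 cartilage and bone markers the mean level was 5.71, 5.82 and 5.80 in knockout, against 5.70, 5.82 and 5.98 in wild type. In both lists the wild-type arrays spread over a wider range than the knockout arrays, with replicate 1 at the low end and replicate 3 at the high end. Wild-type replicate 3 read above wild-type replicate 1 for 28 of the 31 markers (90.3%), by a median of 0.35 log2 units. The same held for 58.9% of all genes tested, with a median of 0.06, and for 82.1% of receptor genes, with a median of 0.19. The exceptions among the markers were Neb, Ibsp and Myh3. Knockout replicate 1 was the lowest array for 14 of the markers (45.2%), beside 13.5% of all genes and 19.9% of receptor genes. Wild-type replicate 1 was the lowest for 11 (35.5%), beside 28.9% and 34.5%. The standard deviation was larger in wild type than in knockout for 24 of 31 markers, beside 67.8% of all genes. The heat map of deviations shows these arrays as columns.

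**Figure D3:**
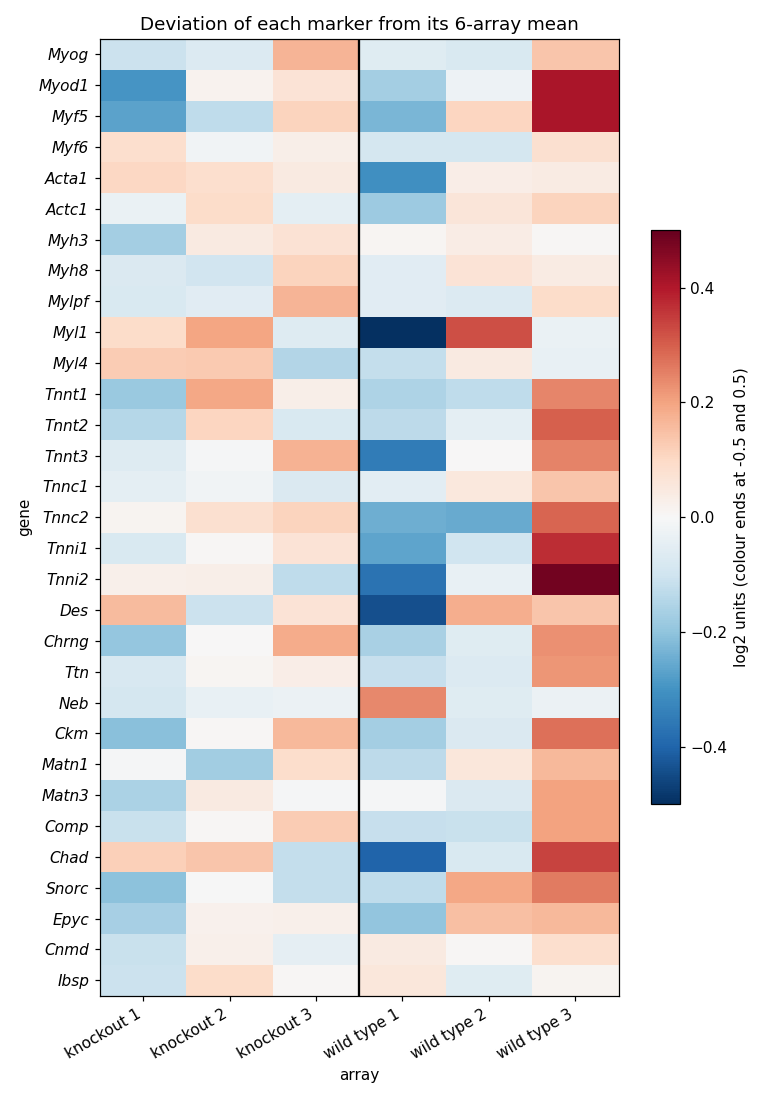
Deviation of each of the 31 markers from its own mean over the 6 arrays, in log2 units, with knockout arrays on the left and wild-type arrays on the right of the black line. Wild-type replicate 3 is the highest array for 20 of 31 markers, beside 31.1% of all genes and 59.1% of other genes with means from 6 to 7. Wild-type replicate 1 is the lowest for 11, beside 28.9%, and knockout replicate 1 for 14, beside 13.5%.

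Genes with no tie to muscle or cartilage had the same lowest and highest arrays where their level was low. The receptor genes deviated from their 6-array mean by -0.04, -0.05 and 0.07 in the knockout arrays, against -0.08, -0.02 and 0.12 in the wild-type arrays. The muscle markers deviated by -0.07, 0.02 and 0.05 in knockout, against -0.17, -0.0077 and 0.18 in wild type. Both lists had wild-type replicate 1 lowest and wild-type replicate 3 highest, and the muscle markers spanned the wider range. The arrays between differed in order, with knockout replicate 2 below its own 6-array mean for the receptor genes and above it for the muscle markers. Wild-type replicate 3 was the highest array for 20 of 31 markers and for 47.1% of receptor genes. Among all other genes tested it was the highest for 62.3% of those with a mean from 5 to 6, where 8 markers lie, and for 59.1% of those from 6 to 7, where 13 lie. That share was 32.7% from 7 to 8 and 10.9% at 8 and over. How far the signal of low-level genes accounts for the differences between arrays in the markers was not tested.

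**Figure D4:**
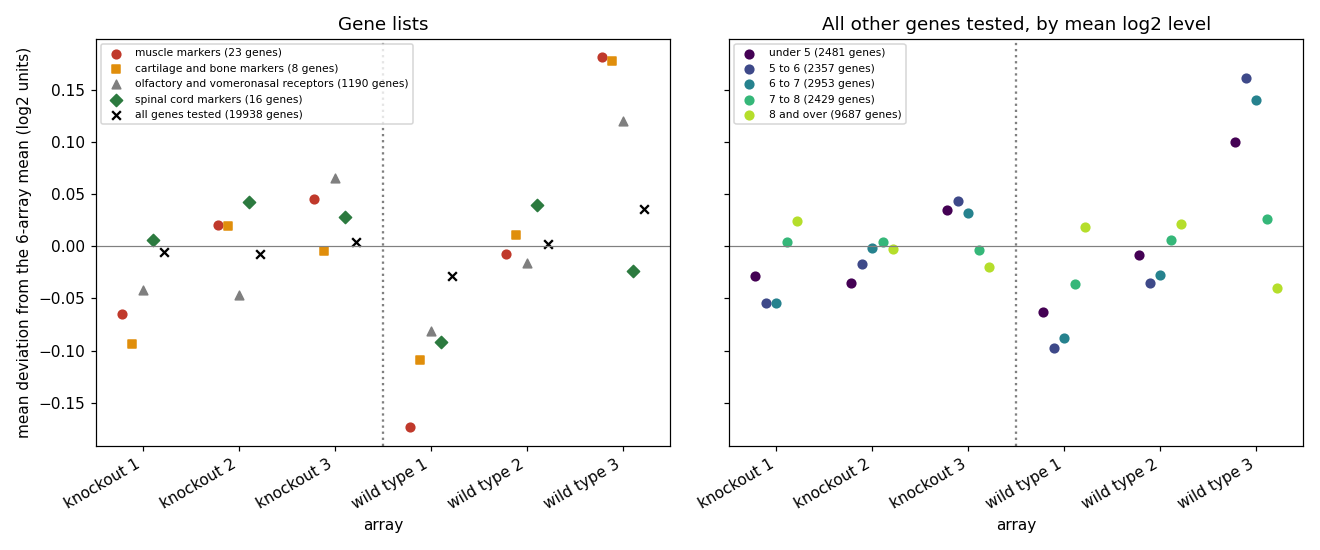
Mean deviation from the 6-array mean in log2 units for each array, knockout arrays left of the dotted line and wild-type arrays right of it, for gene lists (left panel) and for all other genes tested by mean log2 level (right panel). Wild-type replicate 3 stands at 0.18 for the muscle markers and at 0.16 for other genes with levels from 5 to 6, but at -0.04 for genes at 8 and over.

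A separate list of 48 other skeletal muscle genes, all measured, was set beside the markers. Of these 27 lay above the guide, 22 were higher and 26 lower in knockout, at a median difference of -0.01. No member passed the test, and at an unadjusted p under 0.05 there were 0 in either direction. The groups did not overlap for 1 gene higher in knockout (2.08% of the list, beside 3.18% of all genes) and 4 lower (8.33%, beside 2.64%). The higher gene was Pygm, the muscle glycogen phosphorylase, at 0.15. The lower ones were the tropomyosin gene Tpm2 at -0.14, Lrrc39 at -0.13, Musk, the receptor kinase of the nerve-muscle contact, at -0.09 and Casq2, a calcium store protein, at -0.08. Of these 4 only Tpm2 lay above the guide, and the unadjusted p of the 5 ran from 0.0876 to 0.333 (limma). The differences farthest from 0 were those of Tcap, the cap protein of titin, at -0.24, Cdh15, the cadherin of muscle precursors, at -0.18 and Xirp2 at -0.15. Xirp2 read under the guide on every array, and Tcap lay under it by both group means. Wild-type replicate 3 was the highest array for 35 of the 48 (72.9%, beside 31.1% of all genes). The mean levels of the 48 had a median of 6.30, and the share was 59.1% among genes outside the markers with means from 6 to 7. Knockout replicate 1 was the lowest for 8 of them (16.7%), against 14 of the 31 markers (45.2%) and 13.5% of all genes.

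Lists for other tissues at the cord's border were read in the same way. Other cartilage genes (19 of 19 measured, 15 above the guide) had 8 higher and 11 lower and a median difference of -0.02. The proteoglycan gene Fmod differed by -0.21, Cytl1 by -0.20 and Acan, the aggrecan gene that neural tissue also uses, by 0.10. Acan read under the guide on every array. Other bone genes (10 of 12 measured, 6 above the guide) had 3 higher and 7 lower and a median of -0.03. Among them Phex, an endopeptidase of bone cells, read 6.67, 6.66 and 6.89 in knockout arrays, against 6.48, 6.44 and 6.55 in wild-type arrays. Its groups did not overlap, 1 of 10 bone genes measured beside 3.18% of all genes higher in this way. The Phex difference of 0.25 had an unadjusted p of 0.0205 and an adjusted p of 1.0 (limma). Over the lists of muscle, border tissue and cord genes, an unadjusted p under 0.05 (limma) was also reached by Olig2, 1 of 16 cord genes, and Lum, 1 of 10 meningeal genes measured. Phex and Olig2 were higher in knockout and Lum was lower at -0.30, beside 0.933% of all genes higher and 0.767% lower. Lum read from 4.02 to 4.43 over the arrays, under the guide. The groups of Olig2 and Lum did not overlap either, beside 3.18% of all genes higher and 2.64% lower in this way. Dlx5 differed by -0.16 and Col1a1, also made by meninges, by -0.15.

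Tendon genes (6 of 6 measured, 4 above the guide) numbered 3 higher and 3 lower at a median of -0.0059, where Tnxb differed by -0.20, the tendon factor Scx by 0.11 and Thbs4 by 0.09. Smooth muscle genes (7 of 7 measured, 6 above) numbered 4 higher and 3 lower, their median being 0.02, where Lmod1 differed by -0.18, Acta2 by 0.12 and Actg2 by 0.10. Both lists had their lowest mean in wild-type replicate 1 and their highest in wild-type replicate 3, at deviations of -0.16 and 0.19 for tendon and of -0.13 and 0.22 for smooth muscle. Blood genes (6 of 9 measured, all above the guide) were 2 higher and 4 lower, their median being -0.01, and Klf1 differed by -0.16, Epor by 0.12 and Slc4a1 by 0.11.

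Sensory ganglion, meningeal and spinal cord genes did not have their highest mean in wild-type replicate 3. The median of their mean levels was 8.39, 6.85 and 10.94 in that order, against 6.37 for the markers. In wild-type replicate 3, other genes at 8 and over deviated by -0.04 and those from 6 to 7 by 0.14. How far level accounts for the contrast between lists was not tested. Sensory ganglion genes (9 of 11 measured, 7 above the guide) numbered 6 higher and 3 lower at a median of 0.07. Whether neurons of the cord itself also make these genes was not tested, so their levels do not show attached ganglia. The sodium channel gene Scn10a, under the guide on every array, differed by 0.29, the receptor gene P2rx3 by 0.23 and Isl2 by 0.12. The mean deviation of the ganglion list was -0.05 in both wild-type replicate 1 and wild-type replicate 3. Meningeal genes (10 of 11 measured, 7 above) numbered 3 higher and 7 lower at a median of -0.13. The transporter Slc6a13 differed by -0.46, decorin (Dcn) by 0.38 and osteoglycin (Ogn), under the guide on every array, by -0.35. The mean deviation of the meningeal list was 0.02 in wild-type replicate 1 and 0.03 in wild-type replicate 3. Spinal cord genes (16 of 16 measured) numbered 11 higher and 5 lower at a median of 0.03, where Nkx6-1 differed by 0.25, Olig2 by 0.24 and Pax6 by 0.14. Their mean deviation was -0.09 in wild-type replicate 1 and -0.02 in wild-type replicate 3. No gene of any of these lists passed the test over all genes.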

How the data were processed

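Total RNA of the cords was amplified and biotin-labelled for Affymetrix arrays, per the labels' protocols. The deposited values are log2 expression per transcript cluster, which the submitters' processing notes credit to RMA. RMA equalises probe signal distributions between arrays and compresses small differences. Shifts between arrays remained in the cluster values, whose medians lay between 6.96 and 7.10. No version or genome build was given in the sources used here. Of 35557 clusters, 21789 had a single symbol in the platform annotation, which gave 19938 genes after symbols were updated through entrez identifiers (RefSeq table of GRCm38.p6, 19856 matched). The brightest cluster stood for a gene with several.

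Knockout and wild type were compared with limma 3.58.1 (R 4.3.3; lmFit, eBayes, group as the only term, two-sided, Benjamini-Hochberg over all genes, threshold 0.05). The test was checked on simulated data with independent noise for each gene. Those data held no shifts shared by the genes of an array, so the check does not cover such shifts. Members and lists were chosen with earlier results of these data known, so lists are described by counts and medians, with no set test. Every member was named, those above the 95th percentile of receptor genes with their value on each array, and up to 3 genes of each other list with the difference farthest from 0. Phex's array values, Lum, the 5 other muscle genes with non-overlapping groups and the comparisons of wild-type replicates 1 and 3 were chosen after values were seen. Alternatives were leaving out each array, the replicate block, a filter on dim genes, renewed quantile normalization, the mean of clusters, a robust trend and muscle level as a covariate. Figures were drawn with matplotlib 3.10.9.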

Additional observations from a re-analysis of the deposited data

How the results depend on the processing

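No marker passed the test under any setting, the smallest adjusted p of a marker being 0.697 (limma, over all settings tried for single markers), but directions were unstable. The sign changed for 20 of the 31 markers when some array was left out, 7 stayed lower in knockout and 4 stayed higher. With 1 array left out at a time, the log2 difference ran from -0.089 to 0.066 for Myog, from -0.26 to 0.028 for Myod1, from -0.083 to 0.064 for Actc1, from -0.080 to 0.040 for Myh3 and from -0.10 to 0.0019 for Myh8. It ran from -0.056 to 0.076 for Mylpf, from -0.070 to 0.35 for Myl1, from -0.065 to 0.15 for Tnnt1, from -0.16 to 0.054 for Tnnt2 and from -0.090 to 0.21 for Tnnt3. The range was from -0.14 to 0.18 for Tnni1, from -0.25 to 0.18 for Tnni2, from -0.12 to 0.19 for Des, from -0.097 to 0.11 for Chrng and from -0.087 to 0.080 for Ttn. It also ran from -0.11 to 0.11 for Ckm, from -0.14 to 0.011 for Matn1, from -0.044 to 0.12 for Comp, from -0.085 to 0.28 for Chad and from -0.054 to 0.045 for Ibsp. Among markers that kept their sign it ran from 0.040 to 0.21 for Acta1, from -0.12 to -0.055 for Cnmd, from -0.19 to -0.014 for Epyc, from -0.14 to -4.6e-05 for Matn3, from -0.35 to -0.033 for Myf5, from 0.035 to 0.12 for Myf6. The others ran from 0.030 to 0.17 for Myl4, from -0.16 to -0.0065 for Neb, from -0.34 to -0.14 for Snorc, from -0.14 to -0.048 for Tnnc1 and from 0.045 to 0.32 for Tnnc2. Of these Tnnc2 reached an unadjusted p of 0.00287 without wild-type replicate 3 (adjusted p 0.697), Snorc 0.00681 without wild-type replicate 1 (adjusted p 0.999) and Myf5 0.0383 in that same fit (adjusted p 0.999). The count of all genes past the test was 0 in every fit but the fit without knockout replicate 2, where it was 4, so it ran from 0 to 4. In that fit both knockout arrays carried Y-linked signal and no wild-type array did, so sex and genotype cannot be told apart. Whether the 4 genes are sex-linked was not tested. The median difference of all markers ran from -0.086 with wild-type replicate 1 left out to 0.076 with wild-type replicate 3 left out, and was -0.0066 over all arrays. Renewed quantile normalization turned Myog to 0.0093, Actc1 to -0.0053, Chrng to 0.0020 and Ibsp to 0.0012. Centring each array on the receptor genes, an alternative chosen after seeing the data, turned Myog to 0.013, Tnni1 to 0.012, Chrng to 0.012 and Ibsp to 0.0089, and gave 16 markers higher and 15 lower. Without both knockout arrays that carry Y-linked signal, also added later, the median was 0.0041, resting on 1 knockout array that is assumed to vary like the wild-type arrays.

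Same-numbered arrays deviated from their group means with correlations of 0.35, -0.07 and 0.45 over all genes, so the numbers were not taken as pairs, and knockout replicate 2 did not correlate best with its own number. With the replicate number as a block (replicate block) 0 genes passed. The median marker difference of -0.0066 was fixed in advance, since each block holds 1 array of each group. Genes at an unadjusted p under 0.05 numbered 636, against 339 without the block. That number was 994 with the muscle level of each array as a covariate, where 0 genes passed and Tnc differed by -0.69, 1377 when wild-type replicate 3 was left out, 663 when wild-type replicate 1 was and 125 in the absence of both arrays with Y-linked signal. Averaging the clusters of a gene, an intensity trend with robust fitting, and leaving out genes under the background guide, which keeps 18 markers, could not change a marker's direction. Each measured marker had 1 cluster to average, and the other settings alter only the error estimate and the adjustment. They are therefore no test of direction. Signal near background limits what the markers can show: 13 of 31 lay under the guide.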
